A study of Rattus norvegicus with 2 samples.

Results

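Distal intergenic peaks of the histone mark H3K18la are described here: intergenic regions whose centre lay over 10 kb and at most 100 kb from the nearest transcription start site (TSS). They were chosen by the class and the distance in the authors' annotation, leaving out 49 of 7613 such peaks whose nearest gene was named as a microRNA. There were 7564 of them, 26.3% (95% Wilson interval 25.8 to 26.9%) of all 28706 peaks and 64.1% of the 11803 intergenic peaks. These still include 267 peaks assigned to gene models of the microRNA type that carry other names. The rest of the intergenic class was 2940 peaks within 10 kb of a TSS, 1212 beyond 100 kb and those named for microRNAs. All came from 1 chromatin immunoprecipitation sequencing (ChIP-seq) library, made from the myocardium of Wistar rats, all male, after abdominal aortic constriction (AAC), in which a silk ligature ties the aorta to a 0.7 mm wire above the renal arteries. The matching input library comes from the same model and is not analysed here. The labels give the antibody by vendor and catalogue number, and H3K18la was taken as its target from the series title, which also names mitophagy and vagal stimulation. The number of animals and their age are not in the labels, and no unoperated or stimulated group was used. With 1 library there is no replicate error and no test, so every interval below covers counting error alone.

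Lactylation of lysine 18 of histone H3 joins a lactate-derived group to the histone tail and is found, like acetylation, at active promoters and enhancers. Enhancers are stretches of DNA that bind transcription factors and can act on a promoter from many kilobases away, often several to a gene. The nearest TSS is a common first guess at the target, but an enhancer can skip the nearest gene. The assigned gene is thus a label of position here, and contact with its promoter was not measured. Myocardium also mixes muscle, endothelial, fibroblast and other cells, so more cells with the mark and more mark per cell cannot be told apart.

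Promoters are shown for 3 genes to give the sequence at the start sites that the strongest or most numerous distal peaks are assigned to. They were taken where the gene had 1 of the 12 strongest peaks or was 1 of the 6 genes with most peaks, had a promoter peak of its own and had an entry in the promoter table. The sequences are from RefSeq, build GRCr8, and run from 250 bases before to 50 after the annotated start on the gene's strand. The peaks are placed on build rn6, so the positions of the 2 builds are not interchangeable. Epb41l2 is at chr1:21857056-21857355 on the minus strand, Ddit4 at chr20:28436988-28437287 on the minus strand and Cebpb at chr3:176816755-176817054 on the plus strand. Capitals mark matches to the motifs searched.
Epb41l2: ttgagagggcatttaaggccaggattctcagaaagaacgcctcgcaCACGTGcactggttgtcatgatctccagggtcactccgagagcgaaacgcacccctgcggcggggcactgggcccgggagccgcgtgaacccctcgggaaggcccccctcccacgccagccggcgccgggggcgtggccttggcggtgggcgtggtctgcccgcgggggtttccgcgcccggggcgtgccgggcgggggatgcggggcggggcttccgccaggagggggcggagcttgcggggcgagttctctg
Ddit4: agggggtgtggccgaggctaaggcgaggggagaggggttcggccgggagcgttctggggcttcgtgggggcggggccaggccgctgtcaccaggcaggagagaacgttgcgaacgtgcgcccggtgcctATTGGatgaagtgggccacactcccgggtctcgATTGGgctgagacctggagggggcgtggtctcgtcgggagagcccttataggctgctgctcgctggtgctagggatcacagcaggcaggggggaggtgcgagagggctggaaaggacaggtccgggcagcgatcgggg
Cebpb: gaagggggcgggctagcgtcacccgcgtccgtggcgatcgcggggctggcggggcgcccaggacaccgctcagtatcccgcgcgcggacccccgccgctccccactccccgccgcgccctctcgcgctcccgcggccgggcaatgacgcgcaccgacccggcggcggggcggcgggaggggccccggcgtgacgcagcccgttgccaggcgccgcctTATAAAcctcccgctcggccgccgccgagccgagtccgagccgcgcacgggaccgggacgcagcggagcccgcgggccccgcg
All 3 windows were rich in G and C, at 72.3% for Epb41l2, 68.3% for Ddit4 and 81.0% for Cebpb, against a median of 51.7% over 33469 promoters. CpG dinucleotides numbered 33 in Epb41l2, 23 in Ddit4 and 56 in Cebpb, against a median of 7. Searched on both strands were the cyclic AMP response element (TGACGTCA, in 1.83% of all promoters), the AP-1 site (TGANTCA, 7.33%), the E-box (CACGTG, 6.42%), the CCAAT box (CCAAT, 37.5%) and the TATA box (TATAAA, 14.2%). Epb41l2 held 1 E-box starting 204 bases before the start. Ddit4 held 2 CCAAT boxes, on the opposite strand, starting 121 and 88 bases before it. Cebpb held 1 TATA box starting 33 bases before it. Each match is a description of these letters.

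Distal peaks were about as strong and as wide as the other peaks of the library. The authors' fold enrichment, each peak's own ratio to the local background of the peak caller, had a median of 4.15 (95% order-statistic interval 4.11 to 4.18), with quartiles of 3.62 and 4.81 and a range of 2.16 to 11.4. The median was 4.21 (4.16 to 4.23) for intergenic peaks within 10 kb, 4.07 (4.03 to 4.16) for those beyond 100 kb and 4.11 (4.10 to 4.14) for all 21142 peaks outside the distal set. The difference of 0.0371 between distal and all other peaks is small beside the spread among peaks. Distal peaks had a median width of 373 bp (366 to 379), against 390.5 bp within 10 kb, 342 bp beyond 100 kb and 376 bp in all other peaks. The median −log10 q was 3.82 in distal peaks and 3.89 in the others.

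A fold enrichment of at least 6 was used to mark strong peaks. It was reached by 458 distal peaks (6.06%, Wilson interval 5.54 to 6.62%), beside a background of 6.31% over all peaks. Within 10 kb 209 peaks (7.11%) reached it, beyond 100 kb 63 (5.20%) and among all other peaks 1353 (6.40%). At a fold of at least 8 there were 61 distal peaks (0.806%), against 0.777% of all peaks, and 27 of the 100 strongest peaks of the library were distal. Strength by fold thus followed the background, and the intervals of distal and other peaks overlapped. A −log10 q of at least 5 was reached by 29.9% of distal peaks (28.9 to 30.9%) and 32.7% of all other peaks (32.1 to 33.4%), intervals that do not overlap. Within 10 kb the share was 36.1% and beyond 100 kb 25.1%.

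**Figure D1:**
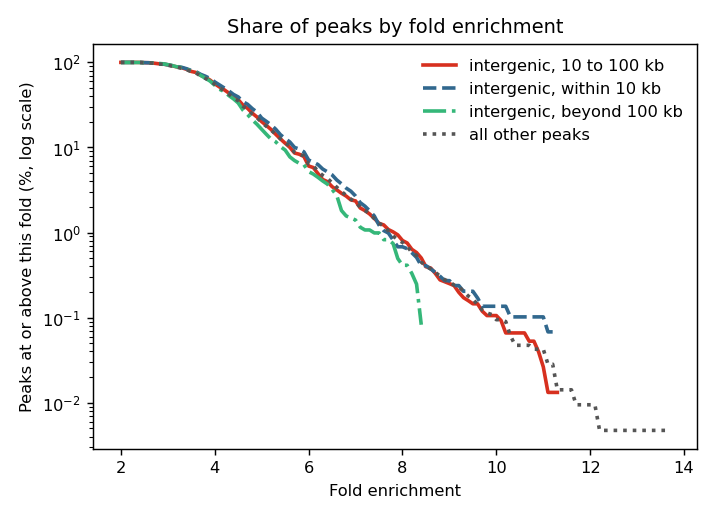
Share of peaks (percent, log scale) at or above each fold enrichment (horizontal axis), for distal intergenic peaks, intergenic peaks within 10 kb, intergenic peaks beyond 100 kb and all other peaks. At a fold of 6 the curves stand at 6.06% of distal peaks and 6.40% of all other peaks.

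Strength went with width. Of distal peaks under 300 bp wide, 0.903% reached a fold of 6, of those from 500 to under 1000 bp wide 9.25%, and of those 2000 bp or wider 51.5%. In the same width classes of all other peaks the shares were 0.825%, 9.56% and 53.5%. Both sets therefore showed the same gradient.

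Distal peaks were most numerous in the step next to the lower limit, and more stood upstream of the assigned gene than downstream. The step from 10 to 20 kb held 2153 peaks (28.5%) and the step from 90 to 100 kb 222 (2.93%), and 1923 (25.4%) lay beyond 50 kb. Upstream of the TSS stood 4566 (60.4%, 59.3 to 61.5%) and downstream 2998. The upstream share was 66.3% at 10 to 20 kb and 48.2% at 90 to 100 kb. A peak inside a gene body is not intergenic, which removes downstream peaks near the TSS by definition. The median fold of each 10 kb step lay between 4.07 and 4.19. The share at a fold of at least 6 was 6.83% at 10 to 20 kb and 4.50% at 90 to 100 kb, and over the steps it lay between 4.23% at 70 to 80 kb and 7.14% at 80 to 90 kb. At the lower limit, the peaks just inside were at 10.002 kb from the pseudogene RGD1563294 (4.14-fold) and 10.005 kb from the gene model AABR07027371.1 (4.56-fold). Just outside were peaks at exactly 10 kb from a 7SK gene (5.03-fold) and from Lmtk2 (3.95-fold). At the upper limit, the peaks just inside lay 99.922 kb from a U6 gene (4.51-fold) and 99.899 kb from Plekha5 (3.75-fold), and those just outside 100.026 kb from Fam43a (5.18-fold) and 100.117 kb from the model AABR07064980.1 (5.68-fold).

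**Figure D2:**
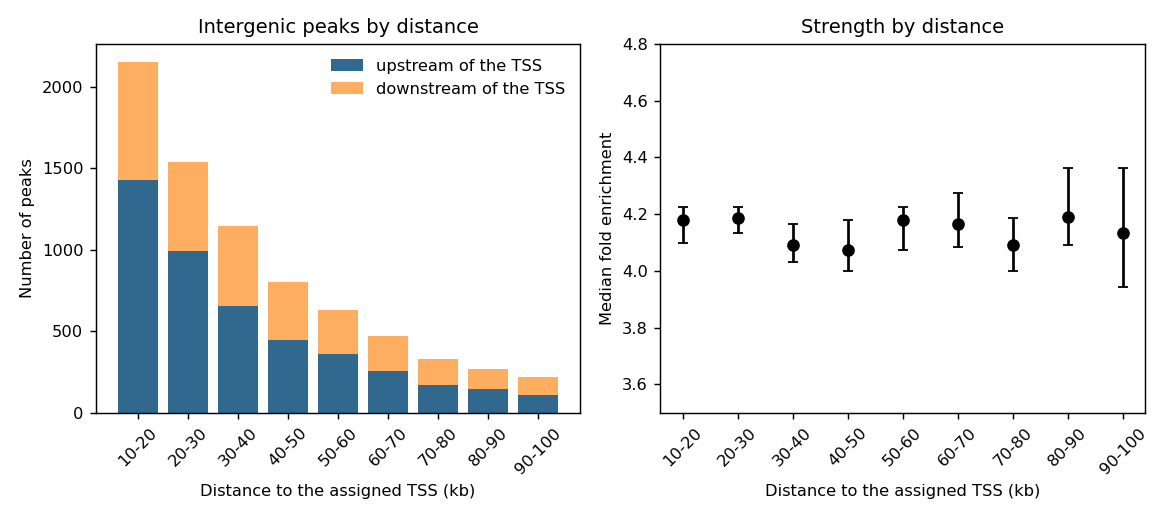
Left, number of distal intergenic peaks in steps of 10 kb from the assigned TSS, split into upstream and downstream. Right, median fold enrichment per step with its 95% order-statistic interval, on an axis that does not start at 0. Counts fall to 222 in the last step while the medians stay between 4.07 and 4.19.

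The strongest distal peak, the first of 12 given here, was a peak of 11.4-fold at chr3:164598518-164600675, 26.3 kb upstream of the long noncoding RNA model AABR07054619.1. Epb41l2, which encodes a protein linking membrane and cytoskeleton, had 11.1-fold at chr1:20978612-20980274, 16.9 kb upstream. Ddit4, an inhibitor of the growth kinase complex mTORC1 that stress and glucocorticoids induce, had 11.0-fold at chr20:29528455-29532417, 19.1 kb upstream. Sh3pxd2b, which encodes an adaptor protein of podosomes, had 10.9-fold at chr10:17163496-17165939, 44.5 kb upstream. Tob2, a member of an antiproliferative family, had 10.7-fold at chr7:123066231-123068645, 20.8 kb downstream. Rgcc, a regulator of the cell cycle, had 10.2-fold at chr15:61535417-61537285, 28.3 kb downstream. These peaks were also wide, from 1663 bp at Epb41l2 to 3963 bp at Ddit4, against the median of 373 bp.

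A phosphatase gene and a gene of purine metabolism followed at almost the same strength. Dusp1, a phosphatase that switches off MAP kinases, had 10.1-fold at chr10:17013013-17014270, 43.0 kb downstream. Ampd3, an AMP deaminase of purine metabolism, had 10.1-fold at chr1:175524254-175526869, 60.5 kb upstream. Klf2, a transcription factor that blood flow induces in endothelium, had 9.77-fold at chr16:19247995-19251356, 24.6 kb upstream. The last 3 of the 12 belonged to the RNA model AABR07044570.2, at 9.67-fold (chr20:10740581-10742108) and 9.43-fold (chr20:10751194-10752600), and to a snoRNA model without a name at 9.61-fold (chr19:59814472-59817303).

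Promoter-class peaks were present at some of these genes. Of these 12 peaks' genes, Ddit4 had a promoter-class peak at 6.52-fold, AABR07044570.2 at 5.91-fold, Epb41l2 at 4.77-fold and the snoRNA model at 4.38-fold, each below the distal peak. No promoter-class peak carried the name of Sh3pxd2b, Tob2, Rgcc, Dusp1, Ampd3, Klf2 or AABR07054619.1. Most of these genes had other peaks near the start. A peak of another class within 1 kb of the TSS had 5.45-fold at Rgcc, 4.43-fold at Tob2 and 3.94-fold at Sh3pxd2b. Dusp1 had none within 1 kb and a peak of 9.32-fold over its termination site, 2.82 kb downstream of the TSS (chr10:16969275-16977618), and Klf2, also with none within 1 kb, had 7.18-fold in intron 2, 1.32 kb downstream (chr16:19222521-19224921). For Ampd3 all 11 assigned peaks were distal, from 3.24-fold to 10.1-fold with a median of 5.54.

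Several of these genes had further, weaker distal peaks. Dusp1 had 12 distal peaks, all downstream, from 2.73-fold to 10.1-fold with a median of 4.85. Rgcc had 16, also all downstream, from 2.62-fold to 10.2-fold with a median of 4.06. Klf2 had 12, of which 11 were upstream, from 3.11-fold to 9.77-fold with a median of 4.28. Ddit4 had 9, with 4 upstream and 5 downstream, from 2.21-fold to 11.0-fold with a median of 5.02. These genes were chosen for their strongest peak, so its distance from the median is a description.

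The widest distal peaks were also strong. The widest peak of the library, 12549 bp at 9.36-fold, lay at chr19:59725270-59737818 and was assigned to the RNA model AABR07072667.1. Pomgnt2, which encodes a sugar transferase acting on dystroglycan, had 9046 bp at 9.07-fold (chr8:130655636-130664681). Armc12, an armadillo repeat gene, had 7776 bp at 8.95-fold (chr20:8090715-8098490). Psma6, a subunit of the proteasome core, had 5920 bp at 8.19-fold (chr6:76224036-76229955). Cebpb, a bZIP transcription factor of growth and inflammation, had 5168 bp at 8.0-fold (chr3:164511888-164517055). The sixth, 4516 bp at 9.23-fold, again belonged to AABR07072667.1 (chr19:59775467-59779982). None of these 6 was among the 12 strongest, although the chromosome 19 peak of 9.36-fold came next after them.

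Distal peaks came in runs along the chromosome. Neighbours were joined at the gap customary for enhancer peaks, so that the largest gap inside a run was 12487 bp and the smallest between runs 12506 bp. In this way 5953 peaks (78.7%, 77.8 to 79.6%) fell into 1534 runs of at least 2, and 1611 stood alone. Runs of at least 5 numbered 368 and held 2926 peaks (38.7%), and 73 runs of at least 10 held 1064 (14.1%). Having a neighbour is common to this library: another peak of any class lay within 5 kb for 73.6% of distal peaks, 76.4% of intergenic peaks within 10 kb, 69.7% of those beyond 100 kb and 71.1% of all other peaks.

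Peaks in long runs were more often strong. A fold of at least 6 was reached by 3.60% (2.80 to 4.63%) of peaks standing alone, 5.52% of those in runs of 2 to 4, 6.44% in runs of 5 to 9 and 10.6% (8.91 to 12.6%) in runs of at least 10. The median fold moved little, at 4.07 for peaks alone and 4.25 in the longest runs, and the median width was 324 bp and 461 bp. Without the 5 runs described next, the share in runs of at least 10 was 9.99% (8.20 to 12.1%). The part of width in this gradient was not tested.

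**Figure D3:**
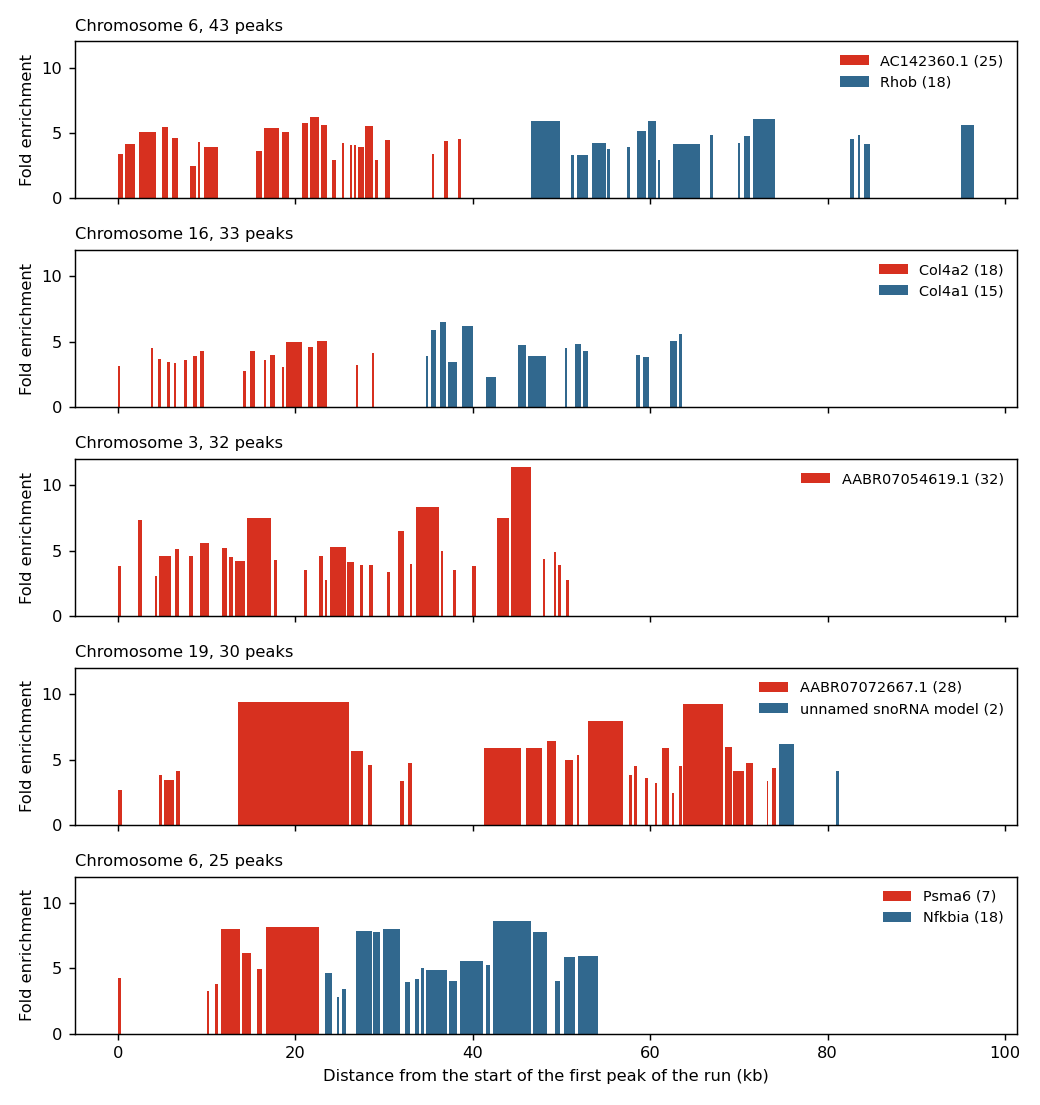
The 5 runs with most distal intergenic peaks. Of 2 runs with 25 peaks, the one of larger span is drawn. Each bar is a peak, placed by its distance in kb from the start of the run, as wide as the peak and as high as its fold enrichment, and coloured by the assigned gene. The run beside Rhob holds 43 peaks, none above 6.20-fold, and the run beside Nfkbia and Psma6 holds 25, of which 8 reach a fold of 6.

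The longest run held 43 peaks over 96.5 kb of chromosome 6 (chr6:33580331-33676804). Of these 25 were assigned to the RNA model AC142360.1 and 18 to Rhob, a small GTPase of the actin cytoskeleton. Its peaks were of ordinary strength, with a median fold of 4.28 and a highest of 6.20. The second run held 33 peaks over 63.5 kb (chr16:83448713-83512245), 18 assigned to Col4a2 and 15 to Col4a1. These genes encode the paired collagen chains of the basement membrane. The run had a median fold of 4.0, a highest of 6.48, and 2 peaks reached 6.

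The other 3 runs lay on chromosomes 3, 19 and 6. The run of AABR07054619.1, with 32 peaks over 50.9 kb (chr3:164554168-164605018), had a median fold of 4.44 and 6 peaks of at least 6. The run of AABR07072667.1 and the unnamed snoRNA model held 30 peaks over 81.2 kb (chr19:59711762-59793005), which covered 51.9% of it, with a median of 4.55. The run between Psma6 and Nfkbia, the gene of the NF-κB inhibitor IκBα, held 25 peaks over 54.1 kb (chr6:76207292-76261378). These covered 62.8% of the run, with a median fold of 5.04, a highest of 8.64 and 8 peaks of at least 6. A run of Trak1 and Ulk4 also held 25 peaks, over 48.9 kb (chr8:129946339-129995201), and ranked after it by span. Its median fold was 4.23, and 1 peak reached 6. No peak of another class lay inside any of the 5 runs drawn. A start site inside a run would in most cases lie within 10 kb of a distal peak, so the distance rule itself keeps most such peaks out.

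Assigned genes differed widely in their number of distal peaks. In all 2581 genes had at least 1, of which 1707 were protein-coding. Of the 2581, 1131 had exactly 1, 464 had at least 5 and 108 had at least 10. The 6 with most were AABR07064980.1 with 35, AABR07054619.1 with 32, AABR07072667.1 with 31, Cebpb and AC142360.1 with 26 each, and LOC690414 with 23. AABR07010589.1, a model of the microRNA type, also had 23 and is placed after LOC690414, its strongest peak being weaker. Only Cebpb among them has a standard name. Its distal peaks ran from 2.73-fold to 8.0-fold with a median of 3.99, and 25 of the 26 were downstream, up to 99.7 kb away. Its promoter peak had 3.28-fold (chr3:164423661-164424231) and the peak over its exon 6.99-fold (chr3:164424652-164425618).

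The peaks of Cebpb and AABR07054619.1 are neighbours. From the first to the last, over 198 kb (chr3:164406879-164605018), there were 62 peaks, 58 of them distal. Between them they had a median fold of 4.23, and 9 reached 6. This window and the next were chosen after the values were seen. Dusp1 and Sh3pxd2b stand at the ends of another stretch, with 30 distal peaks among 32 over 198 kb (chr10:16980332-17178690), of which 6 reached a fold of 6. The distal peaks of that stretch were assigned to Dusp1, Neurl1b and Sh3pxd2b, and it holds 2 of the 12 strongest peaks.

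Genes with distal peaks more often had a peak at their start than all other protein-coding genes, most of which had no peak. Of the 23148 protein-coding genes of the gene table, 1529 had at least 1 distal peak, a background of 6.61%, and 27.1% had a peak of any class. These genes were matched by name, so a gene whose name did not match counts as without peaks. Of the names at distal peaks, over every gene type, 64.9% matched. A promoter-class peak was present in 25.3% (23.2 to 27.6%) of genes with distal peaks and in 8.78% (8.41 to 9.16%) of the 21619 without. A peak centre within 1 kb of the TSS was present in 41.7% and 15.3%. The promoter share was 21.8% for genes with 1 distal peak, 25.8% with 2 to 4, 31.6% with 5 to 9 and 39.0% (27.6 to 51.7%) with at least 10. The share of genes active in myocardium in these classes was not measured. Among protein-coding genes with any peak, counted by gene ID, the order was the other way. A promoter-class peak was present in 393 of 1707 with distal peaks (23.0%) and 1974 of 5020 without (39.3%). Within 1 kb of the TSS the shares were 38.0% and 68.5%. A gene without distal peaks enters this second comparison only through some other peak, which raises its share by definition.

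**Figure D4:**
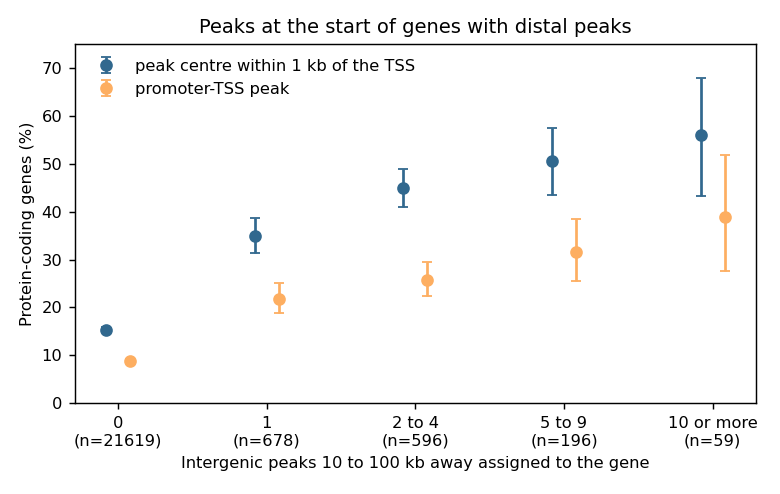
Percent of protein-coding genes with a promoter-class peak, or with any peak centre within 1 kb of the TSS, by the number of distal intergenic peaks assigned to the gene. Bars are 95% Wilson intervals. The promoter share is 8.78% with no distal peak and 39.0% with at least 10. Genes with no distal peak include those with no peak at all.

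The start site was not always the stronger place. Of 648 protein-coding genes with both a distal peak and a peak within 1 kb, the strongest distal peak exceeded the strongest near one in 354 (54.6%, 50.8 to 58.4%). A gene with many distal peaks has more chances to do so, and that was not adjusted for. For 653 of the 1707 protein-coding genes (38.3%) every assigned peak was distal. In 1614 genes (94.6%) all distal peaks stood on 1 side of the TSS, a group that includes every gene with a single one.

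Gene lists for cardiac and control functions were compared by the share of genes with at least 1 distal peak. The lists were chosen with earlier results of these data known. Over all 20 lists, 77 of 441 genes (17.5%, 14.2 to 21.3%) had one, beside the background of 6.61%. That background includes genes without any peak and genes whose names did not match. Among protein-coding genes with a peak of any class, 24.4% (1529 of 6265) had a distal one. Each list share below counts all genes of the list, so it also depends on how many have any peak. Among list genes with any peak, the share was 52.6% for cardiac transcription factors, 42.9% for fibroblast and 42.1% for hypertrophic growth genes. It was nearer 24.4% for calcium handling (31.25%), glycolysis (28.6%) and endothelial genes (27.8%). It was lower for mitophagy (20%) and clock genes (13.3%). Lists of cell types and other tissues were set beside the label of the sample. A peak of any class was present in 27.1% of all protein-coding genes. It was present in 2 of 20 brain genes, 3 of 20 hepatocyte genes, 3 of 20 male germ cell genes and 2 of 22 immune cell genes. The counts were 20 of 26 for sarcomere, 18 of 20 for endothelial, 14 of 24 for fibroblast and 8 of 14 for smooth muscle genes. The 10 fibroblast genes without a peak included Col1a1, Col3a1, Dcn and Pdgfra. The 6 such smooth muscle genes included Tagln, Myh11 and Cnn1. No list was tested, and the shares stand as counts.

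**Figure D5:**
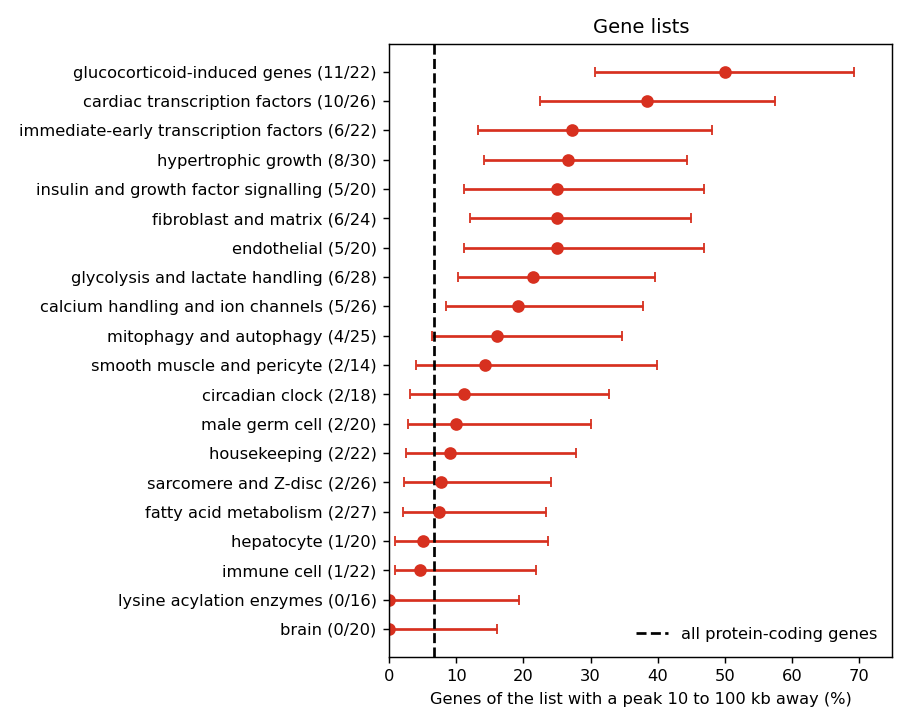
Percent of the genes of each list with at least 1 distal intergenic peak, with 95% Wilson intervals. The dashed line is the share over all protein-coding genes, 6.61%. Glucocorticoid-induced genes stand at 11 of 22 and brain genes at 0 of 20.

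Glucocorticoid-induced genes had distal peaks at 11 of 22, and all 22 had a peak of some class. This list was drawn up knowing that several of its genes had strong peaks, so its count is no independent evidence. Its 105 distal peaks had a median fold of 4.39, against 4.15 over all distal peaks, and 17 reached 6. Beside Ddit4 and Dusp1, Nfkbia led it with 8.64-fold at chr6:76249531-76253837, 18.8 kb downstream, as the strongest of 19. Fkbp5, a chaperone of the glucocorticoid receptor, had 9 peaks and the clock gene Per1 had 2, none of them distal.

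Cardiac transcription factors had distal peaks at 10 of 26 genes (38.5%, 22.4 to 57.5%). These were mostly modest, with a median fold of 3.70 over 30 peaks, and 1 reached 6. With peaks of −log10 q of at least 5 alone the share was 19.2%, beside 3.18% over all protein-coding genes. Nfia, a nuclear factor I gene, had 6.64-fold at chr5:116389150-116390058, 31.1 kb upstream. Gata4, a central factor of cardiac gene expression, had 6 distal peaks of 2.95-fold to 5.58-fold, the strongest at chr15:46458055-46458353, 25.2 kb upstream. Nfib had 6 as well, up to 5.33-fold at chr5:100672224-100673115. The T-box factors Tbx20 and Tbx3 had 5 and 2 peaks, none distal.

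Immediate-early transcription factors, which stimuli induce within minutes, had distal peaks at 6 of 22 genes (27.3%, 13.2 to 48.2%). After Klf2 came the zinc finger factor Klf6 with 6.17-fold at chr17:67969526-67969880 and Bhlhe40, a repressor tied to the clock, with 5.91-fold at chr4:140750430-140751270. Of the AP-1 genes, Fos had 4 distal peaks up to 5.32-fold and Fosb 2 up to 4.26-fold. Fosl2 and Jun had their peaks near the gene, the strongest at 6.29-fold in the promoter of Fosl2 and 6.09-fold in the exon of Jun. Circadian clock genes had distal peaks at 2 of 18, although 15 had a peak of some class. Arntl (now Bmal1), an activator at the core of the clock, had 6.45-fold at chr1:178017894-178019360, 20.4 kb upstream, and Tef had 4.30-fold. Npas2 and Per1 had peaks but none distal.

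Hypertrophic growth genes had distal peaks at 8 of 30 (26.7%, 14.2 to 44.4%). Xirp1, an actin-binding protein of the intercalated disc, had 8.33-fold at chr8:128697627-128700549, 12.1 kb downstream, against 3.49-fold at its promoter. Ctgf (now Ccn2), a matricellular growth factor, had 7 distal peaks up to 5.63-fold, the strongest 58.0 kb upstream at chr1:21912471-21913149. Rcan1, an inhibitor of calcineurin, had 8, up to 5.62-fold at chr11:32564413-32565724, and no other peak. The β-myosin gene Myh7 had 4 peaks and the stretch-response gene Ankrd1 had 1, none distal.

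Sarcomere and fatty acid genes had distal peaks at a share near the background of 6.61% over all protein-coding genes. Among genes with any peak their share was lower than the background. Of 20 such genes in each list 2 had a distal peak, beside 24.4% of all protein-coding genes with any peak. This difference was not tested. Sarcomere and Z-disc genes had them at 2 of 26 (7.69%, 2.14 to 24.1%), although 20 had a peak of some class. These were desmin (Des), the muscle intermediate filament, with 4.23-fold, and the muscle LIM protein gene Csrp3 with 3.41-fold. The myosin light chains Myl2 and Myl3 had 2 and 4 peaks, none distal. Fatty acid genes were alike in count, with 2 of 27 (7.41%, 2.06 to 23.4%) and 20 with any peak. Lpl, the lipase of circulating fat, had 4.44-fold and Lpin1 3.66-fold, and neither Fabp3 nor Cpt1a had a distal peak among their 3 and 6 peaks.

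Calcium handling and ion channel genes had distal peaks at 5 of 26 (19.2%, 8.51 to 37.9%). The cardiac muscarinic receptor Chrm2 had 4 peaks, all distal, from 3.85-fold to 7.08-fold. Atp2a2, the calcium pump of the sarcoplasmic reticulum, had 12, from 3.43-fold to 4.88-fold, the strongest 15.1 kb upstream at chr12:39538306-39539253, against 2.62-fold at its promoter. Cacna1c, the L-type calcium channel, had 1 of 4.53-fold. Phospholamban (Pln) had 20 peaks and none was distal, its strongest lying 142.6 kb from the TSS.

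Endothelial genes had distal peaks at 5 of 20 (25%, 11.2 to 46.9%). Among the 18 with any peak the share was 27.8%, beside 24.4% of all protein-coding genes with any peak. Kdr, the main receptor for vascular endothelial growth factor, had 7 up to 7.61-fold at chr14:34798074-34798895, 70.6 kb downstream, the transcription factor Ets1 had 11 up to 5.0-fold, and Sox7 had 4 up to 4.09-fold. Cdh5 and Flt1 had 4 and 18 peaks, none distal. Fibroblast and matrix genes had 6 of 24 (25%, 12.0 to 44.9%). Smad7, an inhibitor of TGF-β signalling, led with 6.66-fold at chr18:71350962-71351387, and Col4a1 and Col4a2 followed with 6.48-fold and 5.06-fold in their shared run. Ddr2 and Vim had 4 peaks each and no distal one. Smooth muscle genes had 2 of 14, Smtn at 5.92-fold and Des, which stands in the sarcomere list too, while Acta2 and Pdgfrb had 1 peak each elsewhere.

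Genes of glucose use, mitophagy and growth signalling had a few distal peaks each. Glycolysis and lactate genes had them at 6 of 28 (21.4%, 10.2 to 39.5%). The strongest belonged to Pfkfb3, which makes the activator of phosphofructokinase, at 6.20-fold (chr17:70673310-70674642, 10.2 kb upstream). Pdha1, a subunit of pyruvate dehydrogenase, had 5.83-fold on the X chromosome (chrX:37319343-37319616) and Pfkp, a phosphofructokinase, 5.03-fold. Slc2a4 and Hk2 had peaks but none distal. Mitophagy and autophagy genes had distal peaks at 4 of 25 (16.0%, 6.40 to 34.7%), the adaptor Tax1bp1 at 6.85-fold (chr4:82764176-82764929), Wipi1 at 4.74-fold and Atg7 at 4.28-fold among them, and Bnip3 and Bnip3l had 6 and 2 peaks elsewhere. Insulin and growth factor genes had 5 of 20, led by Trib1 at 5.62-fold, Socs2 at 5.0-fold and Pik3r1 at 4.23-fold, with Insr and Irs2 marked elsewhere.

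Control lists and the list of lysine acylation enzymes had few distal peaks, and their intervals overlapped those of most other lists. The share was above the background of 6.61% for housekeeping (9.09%) and male germ cell genes. It was below the background for brain, immune cell and hepatocyte genes and for the acylation enzymes. Every one of these intervals included 6.61%. Housekeeping genes had distal peaks at 2 of 22, among them β-actin (Actb) with 5 up to 5.92-fold, and B2m and Ppia had peaks elsewhere. None of 16 lysine acylation enzymes had one (Wilson interval up to 19.4%), with Kat6a and Kat7 marked at their promoters. None of 20 brain genes had one (up to 16.1%), and Snap25 and Gad1 had peaks elsewhere. Among immune cell genes 1 of 22 had one, Spi1, a factor of myeloid cells, with 6.23-fold at chr3:79905962-79906524, and Csf1r had 1 peak elsewhere. Hepatocyte genes had 1 of 20, Tat at 5.23-fold, which is also in the glucocorticoid list, and Ttr and Cyp2e1 had peaks elsewhere. Male germ cell genes had 2 of 20, Odf1 at 5.32-fold and Zbtb16 at 4.43-fold, the second also in the glucocorticoid list, and Piwil1 had 1 peak elsewhere.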

How the data were processed

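Peaks of 1 ChIP-seq library were analysed. Per the submitters' processing notes, the tools were Bowtie2, MACS2, HOMER, SAMtools, deepTools, FastQC and Trim Galore, with rat build rn6. Their versions and order are not given in the sources used here. A path in the deposited annotation names a call at q 0.05, per the file headers. Whether the input was the background of the call is not given in the sources used here. Fold enrichment (a ratio to local background), −log10 p, −log10 q and the integer score are the authors' own deposited values per peak, used only to describe, rank and filter peaks. Class, gene and signed distance from the peak centre to the TSS are as deposited by the authors, and coordinates are 1-based. Sequencing depth is unknown because no library total was used.

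Peak names joined the list to its annotation. Genes were counted by the annotation's gene ID, and lists by symbol. Names were matched to a RefSeq gene table of build GRCr8, used for names only: of 8094 names 6224 matched a current and 151 an older symbol (78.8%), and of the 2397 names of distal peaks 64.9% matched. Shares have 95% Wilson intervals and medians order-statistic intervals. No p-value was computed, since 1 library allows none. Members, lists and rules were chosen with earlier results of these data known. Named were the 12 strongest and 6 widest peaks, the 5 runs and 6 genes with most peaks, per list up to 3 genes with the strongest distal peak and up to 2 in list order with none, and the 2 peaks on each side of each limit. The values of 1 gene that the rule names are not reported here. Alternatives changed the threshold, the distance limits, the gap, the names kept and the definition of a promoter peak. The method was tested on simulated data. Python 3.11.15, pandas 2.3.3, numpy 2.4.6, scipy 1.17.1 and matplotlib 3.10.9 were used.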

Additional observations from a re-analysis of the deposited data

How the results depend on the processing

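Over 75 values recomputed under alternatives for the distal peaks as a whole, 49 stayed within the interval of the value reported or, for counts, within 1.5 times it, and 26 moved. A change of direction was looked for only in the difference in median fold between distal and other peaks, which kept its sign. Requiring a fold of at least 4 left 4238 peaks of 7564, with a median fold of 4.74 and width of 435 bp, 67.5% in runs, 10.6% of genes with a promoter peak (17.4% without the requirement) and 10.8% of peaks at a fold of 6. Requiring −log10 q of at least 5 left 2262, with 61.6% upstream, a median fold of 5.26 and width of 617.5 bp, a difference of 0.078 from other peaks, 59.5% in runs, 9.39% of genes with a promoter peak, 20.2% at a fold of 6 and 11.1% of list genes with a distal peak. The share over all protein-coding genes was then 3.18%, and 4.81% at a fold of 4. The shares of the 20 single lists all stayed within their intervals at a fold of 4, and 14 did at −log10 q of at least 5, while 6 moved, to 19.2% for cardiac transcription factors, 7.69% for calcium handling, 10% for endothelial and for insulin genes, and 0 for sarcomere and fatty acid genes. Such limits act on the same fold and width that these values measure. A lower limit of 5 kb gave 62.0% upstream and 21.8% of list genes, 20 kb gave 58.0% and 13.4%, and an upper limit of 50 kb gave 62.5% upstream. Leaving out placeholder names left 4804 peaks, 67.6% upstream and 22.5% of genes with a promoter peak. Runs held 72.0% at a gap of 5 kb and 83.4% at 25 kb. Counting any peak within 1 kb as a promoter peak gave 28.9% of genes. The share of peaks at a fold of 6 and that of list genes were added to the alternatives after seeing the data. The share of peaks over a repeat was not run, because the annotation used here names no repeats. No paired analysis was possible because the only shared replicate number joins the ChIP library to an input without values. With depth unknown, no call at a gene is not absence of the mark, and fold enrichment takes only 1101 distinct values over the 7564 peaks.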

Other observations

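Many distal peaks were assigned to genes other than protein-coding ones. Protein-coding genes took 63.6% of distal peaks and 82.6% of all other peaks, and long intergenic noncoding RNA models took 19.8% and 5.71%. The other peaks include 12575 in introns and 2807 of the promoter class, which lie in or at annotated genes. Gene types were not compared with the nearer and farther intergenic peaks. Placeholder or blank names stood at 2760 distal peaks (36.5%), whose share at a fold of at least 6 was 5.11% (Wilson interval 4.35 to 5.99%), against 6.60% (5.93 to 7.34%) at the 4804 with other names. By chromosome, distal peaks made up from 20.2% of peaks on chromosome 12 (183 of 905) to 35.8% on chromosome 6 (640 of 1789, 33.6 to 38.0%). The X chromosome had 75 distal peaks among 234, with a median fold of 4.58, and none of the 2 peaks on Y was distal.

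Distal peaks of 6 further genes, outside the rule for named regions, were chosen here after their values were seen. Dusp16, another MAP kinase phosphatase, had 1 peak, of 9.26-fold at chr4:168550650-168551672, 34.0 kb upstream. Nr3c1, the glucocorticoid receptor, had 12 distal peaks of 3.10-fold to 8.76-fold, 11 of them downstream, and no promoter-class peak. S1pr1, an endothelial receptor for sphingosine 1-phosphate, had 22, up to 8.17-fold, and its promoter peak also had 8.17-fold. Irf2bp2, a transcriptional corepressor, had 14 up to 8.73-fold and a promoter peak of 8.19-fold. Between Irf2bp2 and AABR07072667.1, over 329 kb (chr19:59457055-59785951), 61 of 78 peaks were distal. Tsc22d3, a glucocorticoid-induced gene on the X chromosome, had 15, from 3.18-fold to 7.41-fold. Zeb1, a zinc finger repressor, had 20 and none reached a fold of 6.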
